A study of Homo sapiens with 6 samples.

Results

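The tumour necrosis factor (TNF) superfamily is a set of ligands, most of them trimeric transmembrane proteins that can be shed from the cell surface, and of the receptors that bind them. The members were chosen by symbol: protein-coding genes whose symbol starts with TNFSF or TNFRSF, together with TNF, LTA, LTB, LTBR, FAS, FASLG, CD40, CD40LG, CD27, CD70, NGFR, EDA, EDAR, EDA2R and RELT. This gave 48 genes, 19 ligands and 29 receptors, of the 58051 genes counted. They were measured in A172, an established human glioblastoma cell line. Its cells were made to carry a lentiviral expression plasmid for RBFOX1, an RNA-binding protein, or for green fluorescent protein (GFP) as the control. The study's methods name no treatment of these lines beyond the lentiviral transduction with polybrene. There were 3 libraries of rRNA-depleted total RNA for each construct, and the study's methods name biological replicates where they describe how the stable lines were made. The sources used here do not say whether a line descends from 1 clone or from a pool of cells, and the construct supplies RBFOX1 at a level far above that of the cells' own gene.

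Receptors of the superfamily fall into a few functional types. Those with a death domain (FAS, TNFRSF1A, TNFRSF10A, TNFRSF10B, TNFRSF21, TNFRSF25, NGFR, EDAR) can recruit adaptor proteins. Some of them, such as FAS and TNFRSF10B, can start apoptosis through the adaptor FADD and caspase-8, and TRADD is an adaptor of others. Many of the receptors without a death domain recruit TRAF proteins and activate the transcription factor NF-κB. Decoy receptors (TNFRSF10C, TNFRSF10D, TNFRSF11B, TNFRSF6B) bind a ligand without passing on a death signal. In glioblastoma the family is known mainly for the response to the death ligands FASLG and TNFSF10 (TRAIL) and for TNFRSF12A (Fn14), the receptor of TNFSF12 (TWEAK).

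RBFOX1 recognizes the letters TGCATG, mostly in introns and 3' UTRs, and the members that carry them in the 3' UTR of the canonical transcript are shown here because this is the sequence that the overexpressed protein is known to bind. Of the 24 members with enough counts to be tested, 6 held TGCATG in the 3' UTR (25%), compared with 36.5% of the 14049 tested protein-coding genes that have a 3' UTR (GENCODE release 44, transcript strand). The median 3' UTR was 1608 nucleotides in the members and 1298 in all these genes. Each of the 6 had 1 site, capitalized below between flanks of 10 bases, on GRCh38. The sites lie at chr1:173184594-173184599 on the minus strand for TNFSF4, chr1:7917488-7917493 (minus) for TNFRSF9, chr18:62386409-62386414 (plus) for TNFRSF11A, chrX:66595720-66595725 (minus) for EDA2R, chr13:23673469-23673474 (plus) for TNFRSF19 and chr11:73396248-73396253 (plus) for RELT.
TNFSF4: tttaagaaaaTGCATGgttcattttt
TNFRSF9: ttccatgtctTGCATGtaggtaacca
TNFRSF11A: aagccaaatcTGCATGttgtgaattt
EDA2R: ttgagccataTGCATGtgtagatact
TNFRSF19: gtctggacctTGCATGgcttctgggg
RELT: aggggcttaaTGCATGtgcctgcccc
The first 4 of these genes were lower in RBFOX1 cells and the last 2 did not pass the test, as described below. None of the 6 members that were higher in RBFOX1 cells held the motif in this region. Of the 11 lower members 4 held it (36.4%), close to the background share of 36.5%, and of the 7 not called 2 did (28.6%). The median 3' UTR was longer in the lower members (2538 nucleotides) than in the higher ones (1108.5). Whether the motif goes with the direction of change was not tested. A match is a description of the letters and not a binding site.

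Promoters of the members were searched for the NF-κB consensus, named here rather than spelled out since it has variable positions, because several members are known targets of that factor. RefSeq promoter windows (GRCh38.p14, 250 bases before to 50 after a gene's start) were at hand for 30 of the 48 members. A match on either strand was found in 8 of them (26.7%), compared with 7.09% of the 27305 genes with a window. Of the 8 members found lower in RBFOX1 cells (tested below) and with a window, 3 held a match (TNFRSF9, FAS and TNFRSF25), and of the 4 higher members 1 did (TNFRSF14). The matches lie at chr1:7940904-7940913, chr10:88991274-88991283, chr1:6466128-6466137 and chr1:2556287-2556296 and are shown in capitals with up to 10 bases on each side, on the strand of the gene; that of TNFRSF25 reads as the motif on the opposite strand, and in TNFRSF9 another match on the opposite strand overlaps it.
TNFRSF9: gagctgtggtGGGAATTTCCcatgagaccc
FAS: ggtcgctggaGGGGGACCCCggttggagag
TNFRSF25: gcacggagccGGGAAGCCCCtggg
TNFRSF14: tggactttggGGGGCTCCCCcttctacagg
LTA, LTB, TNFSF13 and TNFSF14 were the other members with a match. Genes with a match were called in both directions, and the letters alone do not show that the factor binds.

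Between 7433414 and 23249221 counts fell on genes in a library. RBFOX1 itself had 4, 0 and 1 counts in the GFP libraries against 10276, 16467 and 21451 in the RBFOX1 libraries, in the direction of the labels. The lines were compared by the quasi-likelihood F test of edgeR, whose p-values were adjusted by Benjamini-Hochberg over the 20536 genes tested, and log2 fold changes (RBFOX1 over GFP) are given with their standard error (SE). A gene is called higher or lower here at an adjusted p under 0.05. A normalized count is a count divided by the library's size factor, and 3 counts were worth 1.73 to 5.16 normalized counts depending on the library. Of all genes tested, 46.7% were called, 23.7% higher and 22.9% lower in RBFOX1 cells. Among the markers of a glial tumour line, VIM, NES and CD44 were abundant, while S100B and FABP7 stayed at or under 3 counts in every library and GFAP at 1 to 4 counts. The summed level of the 11 markers was 74444 to 75488 normalized counts in GFP and 49120 to 49858 in RBFOX1 libraries, and of the 9 tested 3 were higher (CHI3L1, SOX2 and NES) and 5 lower (TNC, SOX9, CD44, VIM and OLIG2), with log2 fold changes from -3.66 for TNC to 6.60 for CHI3L1.

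Markers of cell types in which many of the ligands are usually studied were looked up beside the members. Of 12 immune cell markers, 6 (CD3D, CD3E, CD2, MS4A1, NKG7 and TYROBP) had no count in any library and 8 stayed at or under 3 counts. Their summed level was 34.0 to 46.6 normalized counts in GFP and 94.4 to 105 in RBFOX1 libraries, most of it from PTPRC and CSF1R. The sum of the 6 endothelial markers was 105 to 135 in GFP and 381 to 423 in RBFOX1 libraries. Most of it came from TEK, and CLDN5 was at or under 3 counts throughout. Over the 8 neuronal markers the sum was 3781 to 4089 and 16676 to 18660, nearly all from NEFL, with RBFOX3, SNAP25 and ELAVL4 at or under 3 counts. Of the tested markers, 3 of 4 immune, 4 of 5 endothelial and 4 of 5 neuronal ones were called higher, beside 23.7% of all genes tested. CD14, KDR and TUBB3 were not called. The part of these changes, and of those in the line's own markers, in the results on the members was not tested. In bulk RNA, fewer cells with a transcript and less of it per cell cannot be told apart.

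Among the ligands, 3 were called higher in RBFOX1 cells (CD70, TNFSF10 and TNFSF18) and 3 lower (TNFSF15, TNFSF12 and TNFSF4), out of 19. TNFSF13 and TNFSF13B were tested and not called, and the other 11 ligands had too few counts. Of the 29 receptors, 3 were called higher (TNFRSF21, NGFR and TNFRSF14) and 8 lower (TNFRSF11B, FAS, TNFRSF10B, TNFRSF9, TNFRSF11A, TNFRSF25, EDA2R and TNFRSF1A). A further 5 were tested and not called, and 13 had too few counts. Together 17 of the 24 tested members were called, 70.8%, beside 46.7% of all genes tested. Genes with more counts are called more often. Among genes with a mean of at least 50 normalized counts the background was 64.0% (30.5% higher and 33.5% lower), and of the 15 members at that level 2 were higher, 10 lower and 3 not called. The median log2 fold change of the 24 tested members was -0.17, beside 0.0051 over all genes tested. The values of the groups did not overlap in 18 of the 24 tested members, beside 53.4% of all genes tested. A log2 fold change of at least 1 in size was reached by 4 of the called members upwards and 5 downwards (8.23% and 4.48% of all genes tested).

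**Figure D1:**
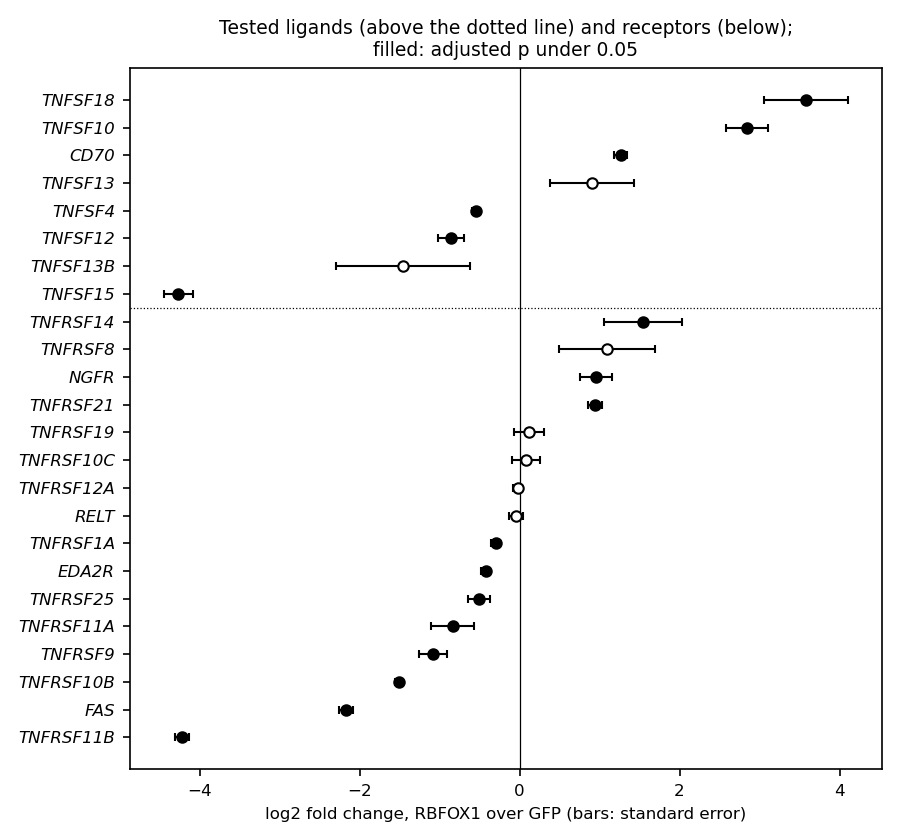
The log2 fold change of RBFOX1 over GFP cells is plotted for the 24 tested members, 8 ligands above and 16 receptors below the dotted line, with bars for the standard error and filled points at an adjusted p under 0.05. TNFSF15 and TNFRSF11B lie furthest to the left at -4.27 and -4.22, and TNFSF18 and TNFSF10 furthest to the right at 3.58 and 2.84.

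TNFSF15 (TL1A, a ligand of the death receptor TNFRSF25 made chiefly by endothelial and myeloid cells) fell most among the ligands. Its normalized counts were 313, 320 and 315 in the GFP libraries and 3.44, 19.0 and 20.8 in the RBFOX1 libraries, the last from 2, 18 and 24 counts. All RBFOX1 libraries were far below the GFP libraries, and RBFOX1 replicate 1 was well below the other two. The log2 fold change was -4.27 (SE 0.183, adjusted p = 1.61e-13), and without RBFOX1 replicate 1 it was -3.97. The gene (ENSG00000181634) lies on chromosome 9 from 114784652 to 114806039 and its 3' UTR of 5800 nucleotides holds no TGCATG.

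TNFRSF25 (DR3), the signalling receptor of TNFSF15, had 101, 87.5 and 87.9 normalized counts in GFP and 72.3, 66.3 and 61.5 in RBFOX1 libraries. The groups were close but did not overlap, with a log2 fold change of -0.51 (SE 0.137, adjusted p = 0.00456). This call was lost with DESeq2 (adjusted p = 0.0677) and with counts thinned to the smallest library (adjusted p = 0.521). TNFRSF6B, the soluble decoy of TNFSF15 and FASLG, was listed at 0 in every library, but all 1140 of its exonic bases are shared with the readthrough gene RTEL1-TNFRSF6B in GENCODE 44, and counting in intersection-strict mode leaves out reads that fit both genes.

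CD70, the ligand of the T-cell receptor CD27 and known on many glioblastomas, was the most abundant ligand that rose. It had 284, 229 and 244 normalized counts in the GFP libraries and 594, 646 and 604 in the RBFOX1 libraries. All RBFOX1 libraries lay above all GFP libraries, 2.43-fold on the means, with a log2 fold change of 1.27 (SE 0.0819, adjusted p = 9.21e-11). CD27 had 1 count in RBFOX1 replicate 3 and none elsewhere.

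TNFSF4 (OX40L), which costimulates T cells through TNFRSF4 (OX40), had 1414, 1354 and 1333 normalized counts in GFP and 938, 937 and 938 in RBFOX1 libraries. The RBFOX1 libraries were nearly equal and all below the GFP libraries, with a log2 fold change of -0.55 (SE 0.0536, adjusted p = 4.75e-08). TNFSF18 (GITRL), the neighbouring ligand gene on chromosome 1, went the other way from near 0, from 1, 1 and 2 counts in the GFP libraries to 7, 14 and 18 in the RBFOX1 libraries. The ratio of its summed counts, RBFOX1 over GFP after scaling, was 13.2, with an exact 95% interval from 4.77 to 50.9 that covers counting error only. The test called it (adjusted p = 9.9e-06), and its fitted log2 fold change of 3.58 depends on the prior count. The receptors of this pair, TNFRSF4 and TNFRSF18 (GITR), had at most 2 counts in any library.

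TNFSF12 (TWEAK) fell from 65.1, 77.5 and 72.9 to 34.4, 44.2 and 37.2 normalized counts, a log2 fold change of -0.86 (SE 0.166, adjusted p = 0.000224). Its receptor TNFRSF12A (Fn14), a short receptor that acts through TRAF proteins, stood at 3706 ± 304 normalized counts in GFP cells against 3642 ± 188 in RBFOX1 cells (SD over 3 libraries each). The groups overlapped and the log2 fold change was -0.025 (SE 0.0581, adjusted p = 0.763), with a positive sign when only the library size was used for scaling (0.026). TNFSF13 (APRIL) lies directly downstream of TNFSF12 and had 2 to 9 counts in each library, with a log2 fold change of 0.90 that did not pass the test (adjusted p = 0.176). A readthrough gene, TNFSF12-TNFSF13, shares 553 exonic bases with TNFSF12 and 1263 with TNFSF13, all of its own exonic bases are shared, and it was listed at 0 in every library. The levels of these genes are therefore uncertain. TNFSF13B (BAFF), which supports B cells, had 7, 1 and 4 counts in GFP and 0, 1 and 2 in RBFOX1 libraries and was not called (adjusted p = 0.169).

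**Figure D2:**
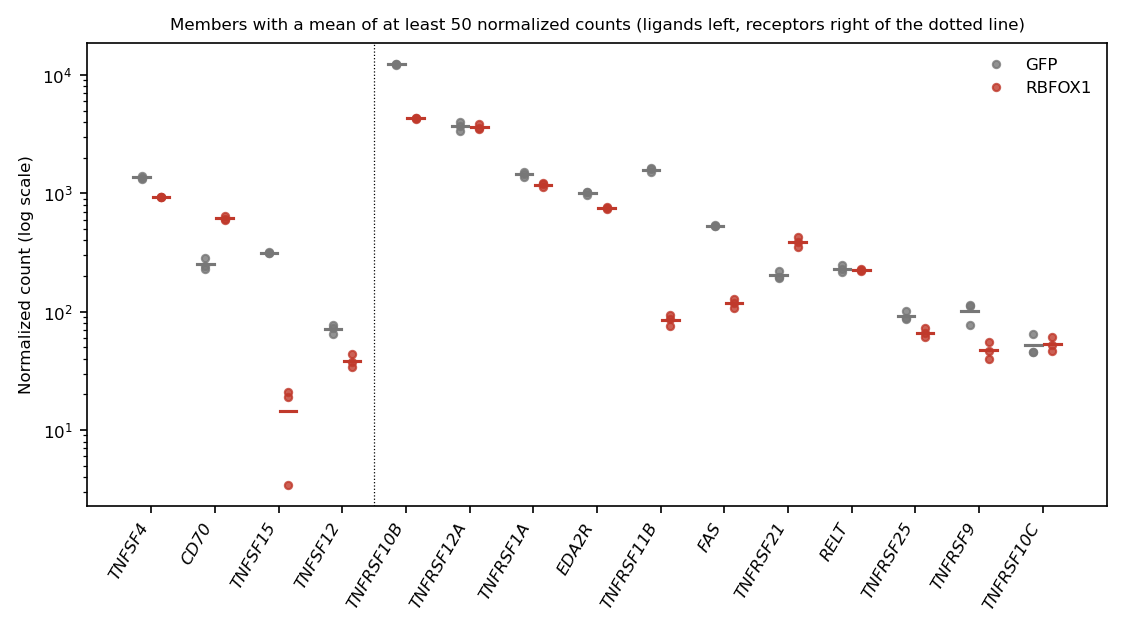
Normalized counts (log axis) of each library are plotted for the 15 members with a mean of at least 50, ligands on the left and receptors on the right, with horizontal bars at the group means. The RBFOX1 points of TNFRSF11B (76.2 to 93.7) and FAS (107 to 127) are far below the GFP points, those of CD70 and TNFRSF21 are above them, and those of TNFRSF12A, RELT and TNFRSF10C overlap them.

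In the TRAIL system the ligand was higher in RBFOX1 cells, while a death receptor and a secreted decoy receptor were lower. TNFSF10 (TRAIL), a death ligand that is also a well-known interferon-stimulated gene, had 9, 7 and 8 counts in the GFP and 25, 46 and 59 counts in the RBFOX1 libraries. In normalized counts this was 6.98 ± 1.56 and 47.5 ± 4.12 (SD, n = 3 each), with no overlap and a log2 fold change of 2.84 (SE 0.261, adjusted p = 1.77e-08). TNFRSF10B (DR5), its main death receptor, had 12492, 12312 and 12224 normalized counts in GFP and 4366, 4289 and 4317 in RBFOX1 libraries. The libraries of each group were within a few percent of each other, and the log2 fold change was -1.51 (SE 0.0460, adjusted p = 9.02e-16), or 2.85-fold lower on the means. The other death receptor of TRAIL, TNFRSF10A (DR4), had at most 2 counts in any library.

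The decoy receptors of TRAIL did not share 1 pattern. TNFRSF10C had 46.1, 64.2 and 46.0 normalized counts in GFP and 46.5, 61.1 and 52.0 in RBFOX1 libraries, which overlapped (log2 fold change 0.078, SE 0.179, adjusted p = 0.762), and TNFRSF10D had at most 1 count. TNFRSF11B (osteoprotegerin), a secreted decoy of both TNFSF11 (RANKL) and TRAIL, fell more than any other receptor. Its normalized counts were 1624, 1501 and 1611 in GFP and 86.0, 93.7 and 76.2 in RBFOX1 libraries, 18.5-fold lower on the means, with a log2 fold change of -4.22 (SE 0.0834, adjusted p = 1.87e-18). TNFSF11 had no count in any library. TNFRSF11A (RANK), its signalling receptor, was counted 44, 18 and 26 times in GFP libraries against 9, 14 and 13 times in RBFOX1 libraries, a log2 fold change of -0.83 (SE 0.268, adjusted p = 0.0145). That call was lost with DESeq2 (adjusted p = 0.157), with thinned counts (0.187), without GFP replicate 1 (0.0519) and without RBFOX1 replicate 3 (0.0973).

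FAS, the receptor of FASLG and the prototype death receptor, had 533, 542 and 531 normalized counts in the GFP libraries and 107, 127 and 119 in the RBFOX1 libraries. The groups were far apart, 4.55-fold on the means, with a log2 fold change of -2.17 (SE 0.0859, adjusted p = 5.04e-14). FASLG had no count in any library. TNFRSF1A, the widely expressed receptor of TNF, had 1380, 1462 and 1514 normalized counts in GFP and 1213, 1198 and 1131 in RBFOX1 libraries, a small decrease without overlap (log2 fold change -0.30, SE 0.0557, adjusted p = 0.000156). TNF had no count in any library, and TNFRSF1B, the other TNF receptor, had at most 2.

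A pair of death-domain receptors linked to the nervous system was higher in RBFOX1 cells. TNFRSF21 (DR6) had 193, 220 and 197 normalized counts in GFP and 427, 355 and 390 in RBFOX1 libraries, with no overlap and a log2 fold change of 0.94 (SE 0.0890, adjusted p = 2.81e-08). NGFR (p75), the neurotrophin receptor, rose from 21.9, 21.1 and 31.0 to 48.2, 46.3 and 47.6 normalized counts (log2 fold change 0.96, SE 0.201, adjusted p = 0.000519). TNFRSF14 (HVEM), the receptor of TNFSF14 and BTLA, was higher at a very low level, with 7, 2 and 2 counts in GFP and 7, 8 and 9 in RBFOX1 libraries. Its log2 fold change was 1.55 (SE 0.490, adjusted p = 0.0134), and the call was lost with DESeq2 (adjusted p = 0.0898) and with thinned counts (adjusted p = 0.0883).

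EDA2R (XEDAR), which binds the A2 form of ectodysplasin, had 1030, 966 and 1017 normalized counts in GFP and 747, 761 and 741 in RBFOX1 libraries, all of them lower (log2 fold change -0.42, SE 0.0572, adjusted p = 3.42e-06). Its ligand EDA had 1, 0 and 1 counts in RBFOX1 libraries and none in GFP libraries, and EDAR had none at all. TNFRSF9 (4-1BB), a costimulatory receptor, fell from 113, 77.5 and 112 to 39.6, 46.3 and 55.4 normalized counts (log2 fold change -1.08, SE 0.170, adjusted p = 2.32e-05), while its ligand TNFSF9 had no count. RELT had 231 ± 14.0 and 226 ± 4.86 and TNFRSF19 (TROY) 43.0 ± 6.60 and 44.6 ± 8.27 normalized counts in GFP and RBFOX1 cells (SD, n = 3 each), and TNFRSF8 (CD30) had 2 to 6 counts in each library. These 3 receptors were not called (adjusted p = 0.758, 0.665 and 0.148).

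The remaining members gave too few counts to be tested. No count was found in any library for TNF, FASLG, CD40LG, TNFSF9, TNFSF11, TNFSF12-TNFSF13, TNFRSF6B, TNFRSF13B, TNFRSF17 and EDAR. LTB, TNFSF8, TNFSF14, EDA, TNFRSF1B, LTBR, TNFRSF4, CD40, CD27, TNFRSF10A, TNFRSF10D and TNFRSF18 had 3 counts or fewer in every library. LTA had 6 counts in GFP replicate 1 and TNFRSF13C had 4, with at most 3 in each other library. No fold is given for these 24 genes, and at this depth a difference in them was not detectable.

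**Figure D3:**
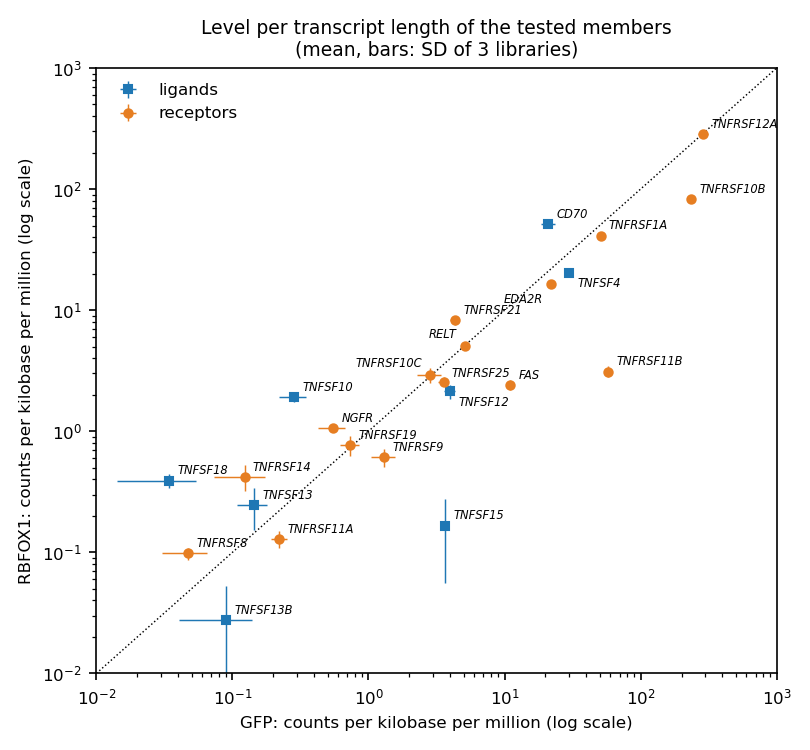
Mean CPM per kilobase of the canonical transcript (log axes) in GFP cells are plotted against those in RBFOX1 cells for the 24 tested members, with bars for the SD of 3 libraries and a dotted line where both are equal. TNFRSF12A and TNFRSF10B lie at the top right, and TNFRSF11B and TNFSF15 lie furthest below the line.

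Levels of different genes were compared per length, as CPM (counts scaled to a common library size) per kilobase of the canonical transcript. In GFP cells the receptors were led by TNFRSF12A at 288 ± 23.6 and TNFRSF10B at 235 ± 2.60 (SD, n = 3 each). TNFRSF11B (57.5 ± 2.46) and TNFRSF1A (50.8 ± 2.36) followed, then EDA2R (22.1 ± 0.743), FAS (11.0 ± 0.121), RELT (5.15 ± 0.314) and TNFRSF21 (4.30 ± 0.310). In RBFOX1 cells TNFRSF12A was at 283 ± 14.6, and TNFRSF10B was at 82.2 ± 0.743, so that its share of the summed receptor level was 18.2% against 34.3% in GFP cells. TNFRSF21 (8.25 ± 0.759) was then the fifth receptor, while TNFRSF11B (3.11 ± 0.319), TNFRSF10C (2.90 ± 0.402), TNFRSF25 (2.57 ± 0.208) and FAS (2.42 ± 0.214) stood close together. Within this last group neighbours in the order differed by no more than their spread. Among the ligands, TNFSF4 led in GFP cells (29.7 ± 0.919) ahead of CD70 (21.0 ± 2.36), and in RBFOX1 cells the order was the reverse, CD70 at 51.2 ± 2.30 and TNFSF4 at 20.4 ± 0.00826. TNFSF12 (3.96 ± 0.348) and TNFSF15 (3.65 ± 0.0416) differed by less than the SD of TNFSF12 in GFP cells.

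Many members lie in clusters, but most pairs of neighbours held a gene with too few counts to be tested. TNFSF18 and TNFSF4 are 133 kb apart on the minus strand of chromosome 1, and the former was higher and the latter lower in RBFOX1 cells. On chromosome 8, TNFRSF10B, which fell, is 33.9 kb from TNFRSF10C, which overlapped between the groups, and TNFRSF10D and TNFRSF10A next to it were at or under 3 counts. CD70 on chromosome 19 lies 47.3 kb from TNFSF9, with no count, and 57.1 kb from TNFSF14, with at most 3. TNFSF8 is 87.3 kb from TNFSF15 on chromosome 9 and had at most 2 counts in a library. TNFRSF1A on chromosome 12 is followed after 32.9 kb by LTBR, the lymphotoxin β receptor, which had 1 count in RBFOX1 replicate 1 and none elsewhere. LTBR is known to be widely expressed, and whether its reads were lost to an overlapping gene of the annotation used for counting was not tested, so its level is uncertain.

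Genes that act with the receptors were described from lists written by hand. Of 19 adaptors and death signalling genes, 18 were tested, 5 were higher and 8 lower, with a median log2 fold change of -0.017. The called share of 72.2% stands beside 46.7% of all genes tested and 64.0% of those with a mean of at least 50 normalized counts, a level that 17 of the 18 reached. MLKL, the effector of necroptosis, fell from 537 ± 22.9 normalized counts to 148 ± 10.6 (SD, n = 3 each), or -1.87 as a log2 fold change (SE 0.0848, adjusted p = 4.04e-13), and RIPK3, the kinase that activates it, had no count in any library. TRADD, the adaptor of TNFRSF1A and TNFRSF25, fell from 422 ± 21.2 to 181 ± 12.3 (log2 fold change -1.22, SE 0.0849, adjusted p = 2.83e-10). FADD, the adaptor of FAS and TNFRSF10B, fell by 0.55 on the log2 scale (SE 0.0602, adjusted p = 1.92e-07), CASP8 by 0.31 (SE 0.0567, adjusted p = 0.000122), and CFLAR, which holds caspase-8 in check, rose by 0.23 (SE 0.0508, adjusted p = 0.000696).

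The 18 kinases, transcription factors and regulators of the NF-κB pathway were all tested, and 3 were higher and 7 lower, with a median of -0.087. All 18 had a mean of at least 50 normalized counts, and the called share of 55.6% was under the 64.0% of all genes at that level. RBCK1, a subunit of the linear ubiquitin ligase at the TNF receptor, fell from 4206 ± 141 normalized counts to 1709 ± 64.7 (SD, n = 3 each), and its log2 fold change was -1.30 (SE 0.0504, adjusted p = 3.64e-14). It was the only gene of this list past a log2 fold change of 1 in size.

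Of the 19 NF-κB target genes found by symbol, 16 were tested, 3 were higher and 9 lower, with a median of -0.35. Beside 23.7% and 22.9% of all genes tested, the lower calls made up most of the called genes of the list. The called share was 75%, beside 46.7% of all genes tested and 64.0% of those with a mean of at least 50 normalized counts. Of the 13 genes at that level 2 were higher and 8 lower, beside a background of 30.5% and 33.5%. TRAF1 (388 ± 34.1 to 83.4 ± 4.76 normalized counts), BIRC3 (1282 ± 5.00 to 322 ± 37.9) and NFKBIA (703 ± 24.4 to 289 ± 38.6) fell, with log2 fold changes of -2.22, -2.01 and -1.26 (SD, n = 3 each; SEs 0.105, 0.0711 and 0.0809; adjusted p = 8.09e-13, 9.79e-15 and 8.14e-11). TRAF1 and BIRC3 sit on the TNF receptor complex and NFKBIA is the inhibitor that NF-κB itself induces. VCAM1, an adhesion molecule of activated endothelium, went against them, from 14.9 ± 1.66 to 226 ± 35.4 normalized counts (log2 fold change 3.88, SE 0.175, adjusted p = 3.56e-13). RELA, a main subunit of NF-κB, had a log2 fold change of 0.16 (SE 0.0650, adjusted p = 0.0567). RELA was called higher with library size scaling (adjusted p = 0.0127), with RLE scaling, with limma-voom, with edgeR's filterByExpr and without GFP replicate 2. The remaining alternatives did not call it, and its sign was positive in all of them. The subunit REL was not called (-0.078, adjusted p = 0.613). The subunits NFKB1, NFKB2 and RELB were called lower, at -0.40, -0.37 and -0.72 (adjusted p = 5.56e-05, 2.91e-05 and 1.33e-06).

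All 6 genes of shedding and maturation were lower in RBFOX1 cells, beside 22.9% of all genes tested and 33.5% of those with a mean of at least 50 normalized counts, and their median log2 fold change was -0.71. ADAM17, the enzyme that sheds TNF and its receptors, fell from 3579 ± 31.0 normalized counts to 1880 ± 67.0 (SD, n = 3 each; log2 fold change -0.93, SE 0.0482, adjusted p = 3.14e-12), and RHBDF1, which brings ADAM17 to the cell surface, from 1438 ± 95.4 to 732 ± 32.1. Its relative RHBDF2, ADAM10, the convertase FURIN and TIMP3, an inhibitor of ADAM17, had log2 fold changes of -0.70, -0.67, -0.69 and -0.72. In each of the 6 genes the groups did not overlap, as in 53.4% of all genes tested. The list holds an inhibitor beside the enzymes, and protein or shed ligand was not measured.

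**Figure D4:**
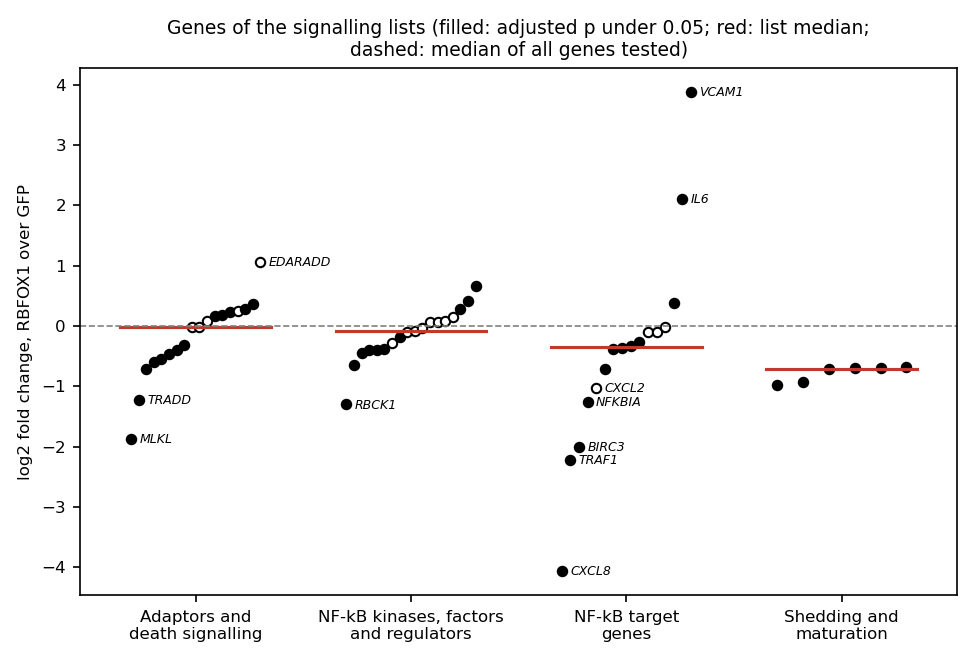
Log2 fold changes of the tested genes of the 4 signalling lists are plotted, with filled points at an adjusted p under 0.05, red bars at the list medians and a dashed line at the median of all genes tested. All 6 points of the shedding and maturation list lie below 0, while the other lists spread to both sides, from CXCL8, with 0 or 1 count in the RBFOX1 libraries, at -4.06 to VCAM1 at 3.88.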

How the data were processed

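RNA of 6 libraries of stable A172 lines, 3 carrying GFP and 3 carrying RBFOX1, was sequenced as stranded paired-end reads. Per the study's methods, HISAT2 alignments to GRCh38 were assigned by the authors to the genes of Ensembl 87, using HTSeq in its intersection-strict mode; the deposited values are raw counts per gene, 7433414 to 23249221 per library. Of all read pairs, 38.1 to 48.0% fell into the classes counted on no single gene and were left out of library sizes and tests. A deposited table of the authors' own DESeq2 comparison (mean levels, fold changes, standard errors, test statistics and p-values) was not used.

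After TMM scaling, counts entered the two-sided quasi-likelihood F test of edgeR (version 4.0.16 under R 4.3.3), condition as the only term, over the genes with at least 10 counts in all. The standard error is the size of the log2 fold change divided by the square root of the F statistic. DESeq2 (1.42.0), limma-voom (limma 3.58.1), other scalings and filters, thinned counts, a replicate block and omission of each library were alternatives. The fits were tested on simulated data. Symbols, coordinates and transcript lengths came from GENCODE 44 on GRCh38, which matched 98.1% of the identifiers; SOD2 was not matched. All members are accounted for; those past the threshold with a mean of at least 50 normalized counts are given per library, as are lower ones with named partners, chosen after their values were seen. Genes called in the signalling lists are named by rule at a log2 fold change of at least 1 in size and such a mean. FADD, CASP8, CFLAR, RELA, REL, NFKB1, NFKB2, RELB, IER3, IL6, RIPK3, CXCL8 and the shedding genes were named after their values were seen. The members and lists were chosen with earlier results of these data known. For TNFSF18, whose GFP libraries held 1 or 2 counts, a ratio with its interval replaces a bound. Intervals and limits cover counting error only. A further immune marker, not among those counted above, is not reported here.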

Additional observations from a re-analysis of the deposited data

How the results depend on the processing

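Of the called members, TNFRSF11A, TNFRSF14 and TNFRSF25 lost the call under at least 1 alternative, as given above; the other 14 kept direction and call under each other scaling, filter and tool and with each library left out, where these gave them a value. Requiring a log2 fold change of at least 1 in size changed counts by its construction: 9 of the members in place of 17, 1 ligand lower, 1 receptor higher and 4 lower, and 9 genes of the signalling lists in place of 41 (adaptors 0 higher and 2 lower, NF-κB pathway 0 and 1, NF-κB targets 4 lower, shedding 0 lower). The median of the tested members was -0.12 with library size scaling, -0.35 with edgeR's filterByExpr, which tests fewer genes, -0.23 with thinned counts, and from -0.19 to -0.017 with a library left out, the last without GFP replicate 1. With a library left out, 16 or 17 members were called. Among members that were not called the sign changed for RELT (0.012 with library size scaling), TNFRSF12A (0.026 with library size scaling and 0.0072 with thinned counts) and TNFRSF10C (-0.46 with thinned counts). With a library left out, the value ran from -0.082 to 0.024 for RELT, -0.090 to 0.042 for TNFRSF12A, -0.028 to 0.22 for TNFRSF10C and -0.012 to 0.23 for TNFRSF19. Replicate numbers are shared by the groups, but deviations of same-numbered libraries correlated with -0.033, 0.016 and -0.00055, so they were not taken as pairs; the replicate block left 17 members and 39 signalling genes called. RBFOX1 replicate 1, the shallowest library, limits what can be said of genes near 3 counts.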
